A study of Mus with 8 samples.

Results

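Matrix metalloproteinases are zinc-dependent enzymes that cut collagens, laminins, proteoglycans and other parts of the extracellular matrix, and that also release growth factors and cytokines held there. Most are secreted as inactive proenzymes, which are opened by plasmin, by furin or by other metalloproteinases, and are then held in check by tissue inhibitors of metalloproteinases, the Timp proteins. In solid tumours many of them come from fibroblasts and from infiltrating leukocytes rather than from the carcinoma cells. Described here are 10 of these genes: the gelatinases Mmp2 and Mmp9, the membrane-bound enzyme Mmp14, the stromelysins Mmp3, Mmp10 and Mmp11, the collagenases Mmp8 and Mmp13, the macrophage elastase Mmp12, and Mmp19. They were taken as a named list, and their array probes were found by matching the probes' accessions to RefSeq transcripts of each gene. This gave 14 probes, namely 3 for Mmp12, 2 each for Mmp9 and Mmp19 and 1 for each of the other 7 genes. All 10 genes passed the filter on dim probes, out of 31282 genes and transcripts tested.

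The tumours came from MC38, a mouse colon cancer line transplanted under the skin. The hosts were Ext1S100a4Cre mice, which carry Ext1 flox/flox and S100a4-Cre, and wild-type (WT) mice, which the labels call B6. There were 4 tumours of each host, and the labels do not say whether each came from its own mouse. Ext1 codes for an enzyme that lengthens heparan sulfate chains. The S100a4 promoter drives Cre in fibroblasts and also in some leukocytes of the host, and the transplanted MC38 cells kept their own Ext1. Tumours were taken 25 to 30 days after transplantation, and RNA of the whole tumour was measured on 1 Agilent array each, in 1 colour. Host age and sex are not given in the labels used here. The series title names the question as what a loss of heparan sulfate in fibroblasts does to colon tumour growth. In whole tumours, fewer cells of a type and less RNA per cell cannot be told apart, which applies to every gene below.

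Some tumours stood apart before any metalloproteinase was considered. Fewer probes were well above background in Ext1S100a4Cre host tumours 1 and 4, with 65.66% and 65.96%, than in the remaining 6 tumours, with 68.84% to 71.1%. Ext1 itself measured -0.62, -0.27, -0.54 and -0.42 in Ext1S100a4Cre host tumours 1 to 4, against -0.55, -0.28, 0.24 and -0.14 in WT host tumours 1 to 4. These overlap, and the labels and files do not place its probe relative to the deleted part, so the level does not check the genotype. The 4 Y-linked marker genes were above background in Ext1S100a4Cre host tumours 2 and 3 and in all 4 WT host tumours, and not in Ext1S100a4Cre host tumours 1 and 4. Host sex may therefore differ between the tumours, and those 2 tumours also had the lowest Mmp2, Mmp3 and Mmp9. The part of host sex in the results below was not tested. Skeletal muscle markers were highest in Ext1S100a4Cre host tumours 2 and 3, with a mean of 2.54 and 3.26 on a log2 scale centred on the 8 tumours, against -1.49 to -0.45 in the other 6. Fibroblast markers were lowest in Ext1S100a4Cre host tumour 1, at -2.79, and highest in WT host tumour 3, at 1.83. All 8 carcinoma epithelium markers but Cdx1 were above background in every tumour, and Cdx1 was so in 3 of the 4 WT host tumours. Their mean was higher in the Ext1S100a4Cre host for 5 and lower for 3, and 0 passed the test described below. Krt8 measured 4.44 ± 0.26 in the Ext1S100a4Cre host and 4.29 ± 0.25 in the WT host (SD, n = 4 each). Cdx1 and Krt20 differed by more, by 1.92 and -0.89 log2 units, Ext1S100a4Cre host minus WT host. For Cdx1 the groups did not overlap, as for 4.54% of all genes tested.

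Levels below are log2 processed intensities relative to the array's own 75th percentile, so 0 is the level of that percentile and each unit is a doubling. A level can be compared for 1 gene between tumours and not between genes, because each probe has its own brightness. Differences are the Ext1S100a4Cre host minus the WT host in log2 units, with limma's standard error (SE) and its Benjamini-Hochberg adjusted p over all 31282 genes, called below 0.05.

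Each of the 10 metalloproteinases had a lower mean in the Ext1S100a4Cre host, and none passed the test. A lower mean was found for 41.9% of all genes tested. The mean was at least 2-fold lower for 5 of the 10, namely Mmp3, Mmp12, Mmp2, Mmp9 and Mmp10, against 3.61% of all genes. Among the alternatives described below, this count was 3 with normexp, 4 with quantile scaling or array weights and 5 with median scaling. It was 6 without Ext1S100a4Cre host tumour 4. Without Ext1S100a4Cre host tumour 1 it was 2, Mmp12 (-2.81) and Mmp3 (-2.39), with Mmp2, Mmp9 and Mmp10 at -0.90, -0.68 and -0.63. Mmp3 and Mmp9 were background readings in that tumour. The median difference of the 10 was -0.75, against 0.05 over all genes. Limma called 0 of the 10 at an adjusted p of 0.05, where it called 0% of all genes. At an unadjusted p under 0.05 it counted 0 of the 10, where 6.55% of all genes passed, 2.16% with a lower mean. The groups overlapped for each of the 10, whereas 4.54% of all genes had no overlap, 1.14% with the Ext1S100a4Cre host below. The largest differences were those of Mmp3, Mmp12 and Mmp2, and their range among the 4 Ext1S100a4Cre host tumours alone was 8.64, 7.11 and 6.77 log2 units, wider than the difference between hosts in each case. Without Ext1S100a4Cre host tumour 1, Mmp12 had a larger difference than Mmp3.

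**Figure D1:**
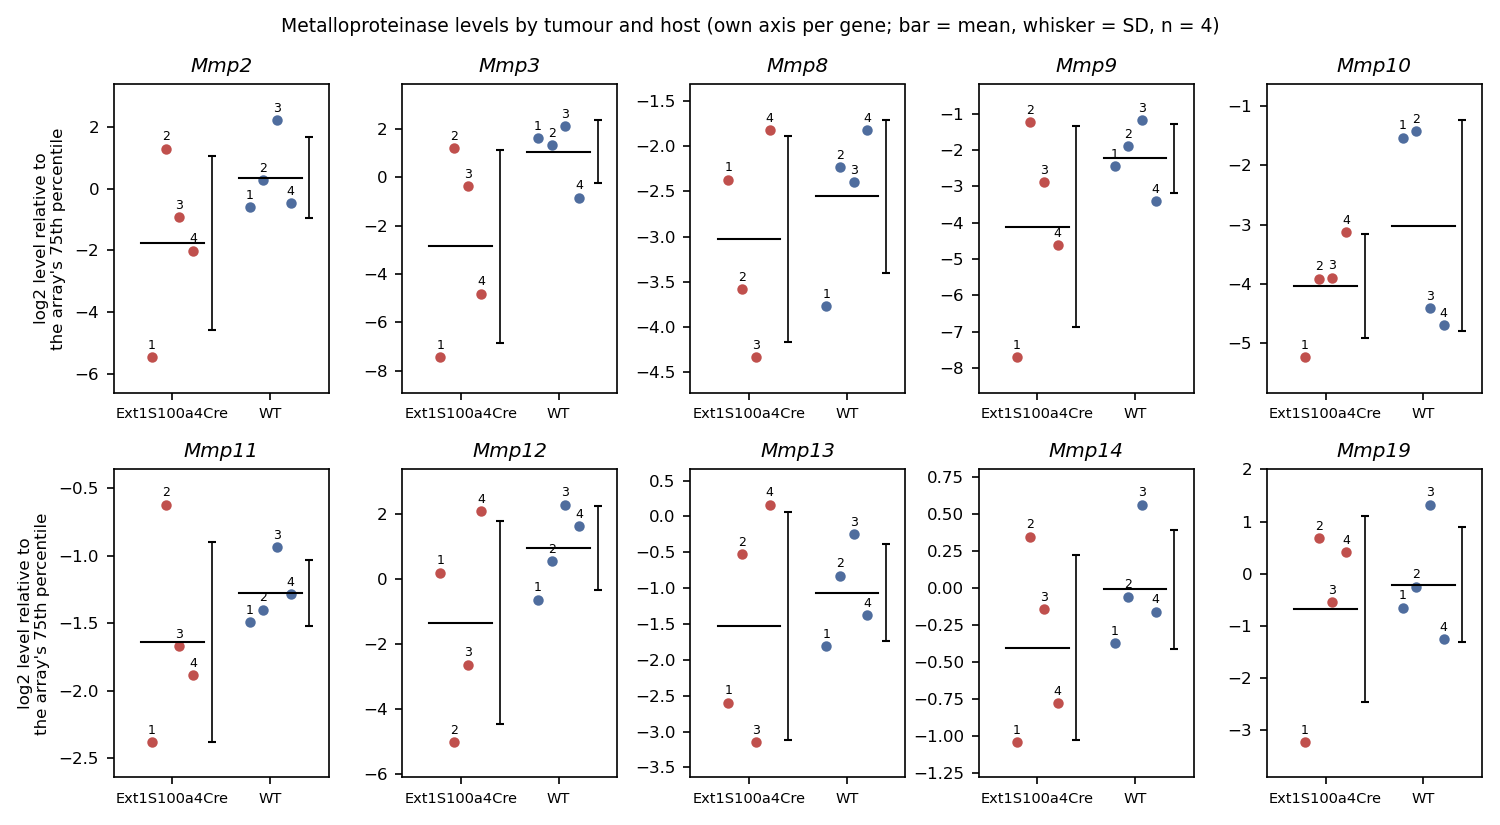
Level of each metalloproteinase in each tumour (log2 relative to the array's 75th percentile, own vertical axis per gene), with the Ext1S100a4Cre host on the left and the WT host on the right, numbers giving the tumour, bars the mean and whiskers the SD (n = 4). Ext1S100a4Cre host tumour 1 is the lowest point for 7 of the 10 genes and WT host tumour 3 the highest for 6, and the groups overlap for each gene.

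The gelatinases cut denatured collagen and the collagen network of basement membranes. Mmp2 is made mainly by fibroblasts, and its proenzyme is activated at the cell surface by Mmp14 together with Timp2. Mmp2 measured -5.47, 1.30, -0.92 and -2.01 in Ext1S100a4Cre host tumours 1 to 4, against -0.60, 0.27, 2.23 and -0.47 in WT host tumours 1 to 4. Tumour 1 of the Ext1S100a4Cre host was far below all others, while tumour 2 of that host was above 3 of the 4 WT host tumours. The group means were -1.78 ± 2.82 in the Ext1S100a4Cre host and 0.36 ± 1.30 in the WT host (SD, n = 4 each). The difference was -2.13 (SE 1.34, limma adjusted p = 0.747, exact permutation p = 0.229), and it was -0.90 without Ext1S100a4Cre host tumour 1 and -0.17 without Ext1S100a4Cre host tumours 1 and 4. As a fold it was 0.228 of the WT level, with a 95% interval of 0.0269 to 1.94.

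Mmp9 is the gelatinase of neutrophils, macrophages and stromal cells. It measured -7.71, -1.23, -2.88 and -4.61 in Ext1S100a4Cre host tumours 1 to 4, against -2.45, -1.88, -1.17 and -3.41 in WT host tumours 1 to 4. The probe was not well above background in Ext1S100a4Cre host tumour 1, so the value there is a background reading, and the difference of -1.88 (SE 1.26, limma adjusted p = 0.747) rests partly on it. Without that tumour the difference was -0.68, and without Ext1S100a4Cre host tumours 1 and 4 it was 0.17. The tumours kept the order of Mmp2 at both ends, with Ext1S100a4Cre host tumours 1 and 4 lowest and WT host tumour 3 highest. The other Mmp9 probe gave a difference of -2.11 (SE 1.41) and was likewise not above background in 1 Ext1S100a4Cre host tumour.

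Mmp14 is anchored in the cell membrane, where it cuts fibrillar collagen and activates the Mmp2 proenzyme. It varied least of the 10 genes, over a range of 1.60 log2 units. Its levels were -1.04, 0.34, -0.15 and -0.78 in Ext1S100a4Cre host tumours 1 to 4, against -0.38, -0.06, 0.56 and -0.16 in WT host tumours 1 to 4. Tumour 1 of the Ext1S100a4Cre host was again lowest and tumour 3 of the WT host again highest. The difference was -0.40 (SE 0.33, limma adjusted p = 0.773), and as a fold 0.760 of the WT level with a 95% interval of 0.446 to 1.30, which leaves out a 3-fold change in either direction. The difference was -0.18 without Ext1S100a4Cre host tumour 1, -0.65 without tumour 2 of that host and -0.21 without WT host tumour 3.

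**Figure D2:**
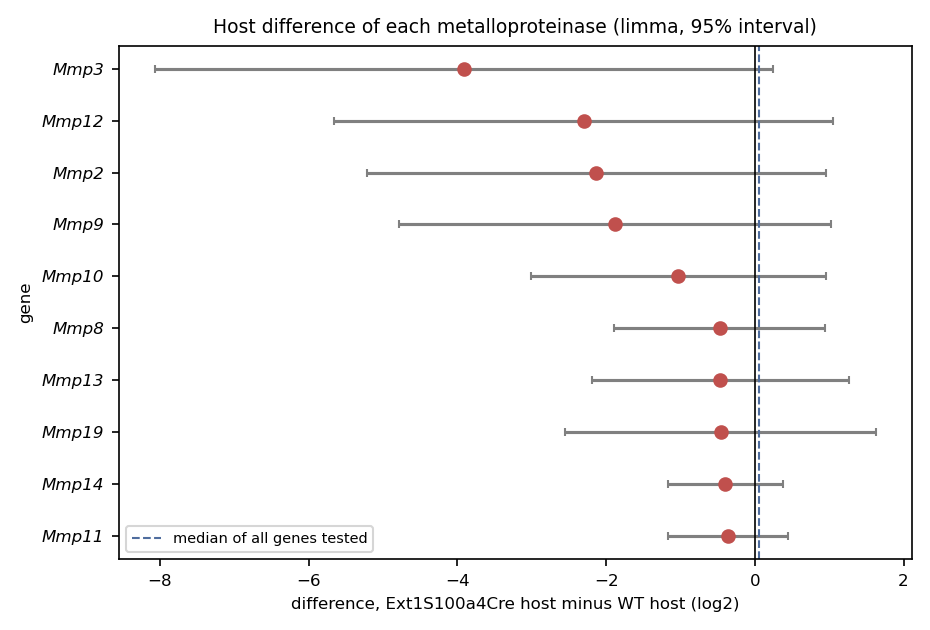
Difference of each metalloproteinase between hosts, Ext1S100a4Cre minus WT, in log2 units with limma's 95% interval, ordered by size, with the median of all genes tested as a dashed line at 0.05. Each of the 10 points lies below 0 and each interval includes 0. The widest interval is that of Mmp3, from -8.07 to 0.24, and that of Mmp14 runs from -1.17 to 0.38.

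The stromelysins act on a broad set of matrix proteins, and Mmp3 also opens the proenzymes of other metalloproteinases, Mmp9 among them. Over all 8 tumours Mmp3 had the largest difference of the 10. It measured -7.44, 1.20, -0.37 and -4.82 in Ext1S100a4Cre host tumours 1 to 4, against 1.61, 1.34, 2.12 and -0.85 in WT host tumours 1 to 4. Tumours 1 and 4 of the Ext1S100a4Cre host were below all others, and tumours 2 and 3 of that host lay within the WT range. The probe was not well above background in Ext1S100a4Cre host tumour 1. The means were -2.86 ± 3.98 in the Ext1S100a4Cre host and 1.06 ± 1.31 in the WT host (SD, n = 4 each). The difference was -3.91 (SE 1.81, limma unadjusted p = 0.0617 and adjusted p = 0.747, exact permutation p = 0.143). It was -2.39 without Ext1S100a4Cre host tumour 1 and -0.64 without Ext1S100a4Cre host tumours 1 and 4, where Mmp12 was at -2.81 and -4.78.

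Mmp10, the closest relative of Mmp3, went with a different split of the tumours. Its levels were -5.24, -3.91, -3.90 and -3.13 in Ext1S100a4Cre host tumours 1 to 4, against -1.54, -1.42, -4.41 and -4.70 in WT host tumours 1 to 4. WT host tumours 1 and 2 were above all others, and WT host tumours 3 and 4 were below 3 of the 4 Ext1S100a4Cre host tumours. The difference was -1.03 (SE 0.86, limma adjusted p = 0.772). It was -0.49 without WT host tumour 2, -0.53 without WT host tumour 1, -1.59 without WT host tumour 4 and -0.63 without Ext1S100a4Cre host tumour 1. The arrays lay on 1 slide in 2 rows, each holding 2 tumours of each host, and the WT tumours with high Mmp10 shared row 1. The difference was -3.10 within row 1 and 1.04 within row 2. With the row as a block in limma, the Mmp10 difference stayed at -1.03 (adjusted p = 0.767), and 0 of the 10 genes passed. Whether the host difference itself depends on the row was not tested. Within rows, 9 of the 10 genes were lower in the Ext1S100a4Cre host in row 1 and 9 in row 2, the exceptions being Mmp8 in row 1 (0.02) and Mmp10 in row 2.

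Mmp11 is the stromelysin of fibroblasts around carcinomas and is activated by furin inside the cell. Its levels were -2.38, -0.62, -1.67 and -1.88 in Ext1S100a4Cre host tumours 1 to 4, against -1.49, -1.40, -0.94 and -1.28 in WT host tumours 1 to 4. The 4 WT host tumours lay within 0.55 log2 units of each other and the Ext1S100a4Cre host tumours within 1.75, with 1 Ext1S100a4Cre tumour above and 3 below the whole WT range. The difference was -0.36 (SE 0.35, limma adjusted p = 0.792), and it was -0.11 without Ext1S100a4Cre host tumour 1 and -0.70 without tumour 2 of that host.

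The collagenases cut intact fibrillar collagen. Mmp13 is the main such enzyme of rodent stroma, and Mmp8 is stored in the granules of neutrophils. Mmp13 measured -2.60, -0.53, -3.14 and 0.16 in Ext1S100a4Cre host tumours 1 to 4, against -1.80, -0.83, -0.25 and -1.37 in WT host tumours 1 to 4. The highest and the lowest value both came from the Ext1S100a4Cre host, in tumours 4 and 3. The difference of -0.46 (SE 0.75, limma adjusted p = 0.875) was 0.077 without Ext1S100a4Cre host tumour 3 and -1.02 without tumour 4 of that host. Mmp8 measured -2.37, -3.58, -4.33 and -1.82 in Ext1S100a4Cre host tumours 1 to 4, against -3.77, -2.23, -2.40 and -1.82 in WT host tumours 1 to 4. Here Ext1S100a4Cre host tumours 1 and 4 were not low, and tumour 4 of both hosts read alike. The difference was -0.47 (SE 0.62, limma adjusted p = 0.841), and it was -0.04 without Ext1S100a4Cre host tumour 3, -0.88 without WT host tumour 1 and -0.23 without WT host tumour 4.

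Mmp12 is the elastase of macrophages, and it was low in other tumours than Mmp2, Mmp3 and Mmp9. It measured 0.20, -5.01, -2.63 and 2.10 in Ext1S100a4Cre host tumours 1 to 4, against -0.63, 0.56, 2.30 and 1.63 in WT host tumours 1 to 4. Tumours 2 and 3 of the Ext1S100a4Cre host were below all others, and tumours 1 and 4 of that host lay inside the WT range. The difference of -2.30 (SE 1.46, limma adjusted p = 0.747) was as a fold 0.203 of the WT level, with a 95% interval of 0.0199 to 2.08. Without Ext1S100a4Cre host tumour 2 it was -1.07, without tumours 2 and 3 of that host it was 0.19, and without tumours 1 and 4 it was -4.78. The other 2 Mmp12 probes gave -2.45 (SE 1.38) and -2.20 (SE 1.36) and were lowest in the same 2 tumours. They were well above background in 3 and 2 of the 4 Ext1S100a4Cre host tumours, so some of these readings are background.

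Mmp19 is found in many tissues and acts on basement membrane components. Its levels were -3.23, 0.68, -0.55 and 0.42 in Ext1S100a4Cre host tumours 1 to 4, against -0.65, -0.25, 1.32 and -1.26 in WT host tumours 1 to 4. Apart from the low tumour 1, the Ext1S100a4Cre host tumours lay inside the WT range. The difference of -0.46 (SE 0.91, limma adjusted p = 0.899) was 0.39 without Ext1S100a4Cre host tumour 1 and 0.05 without WT host tumour 3. The other Mmp19 probe gave -0.25 (SE 0.62) and was well above background in 3 of the 4 Ext1S100a4Cre host tumours.

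Single tumours recurred at the ends of these distributions. Ext1S100a4Cre host tumour 1 was the lowest for 7 genes (Mmp2, Mmp3, Mmp9, Mmp10, Mmp11, Mmp14 and Mmp19), and WT host tumour 3 was the highest for 6 (Mmp2, Mmp3, Mmp9, Mmp12, Mmp14 and Mmp19). The range among the 4 tumours was wider in the Ext1S100a4Cre host than in the WT host for 9 of the 10 genes, all but Mmp10. The shares of all genes with these 3 traits were not counted, so the traits are not shown to be particular to metalloproteinases. Fibroblast and macrophage marker means were also lowest in Ext1S100a4Cre host tumour 1 (-2.79 and -2.71) and highest in WT host tumour 3 (1.83 and 2.51). Without Ext1S100a4Cre host tumours 1 and 4 together, 6 of the 10 genes had a lower mean in the Ext1S100a4Cre host, and Mmp9, Mmp11, Mmp14 and Mmp19 had a higher one.

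Pairwise, 5 of the 10 genes followed each other across the tumours. Over the 8 tumours, the 10 pairs among Mmp2, Mmp3, Mmp9, Mmp11 and Mmp14 had Pearson r between 0.83 and 0.98. Each passed an adjusted exact permutation p of 0.05 over the 45 pairs of members. These 5 genes are grouped by the same r, so that each of their pairs passed is a description. By Spearman's rho, 5 of these 10 pairs passed. In all, 11 of the 45 pairs passed by Pearson's r, where the largest exact p that passed was 0.0118. Of the pairs of a metalloproteinase with any other gene, 6.1% reached that p, and the genes of a pair share their libraries. Mmp2 and Mmp9 had r = 0.98 (exact p = 0.00017, adjusted 0.00391), rho = 0.929, and r = 0.94 without the 2 tumours farthest from the median of Mmp2. Over the 10 pairs, r without the 2 farthest tumours ran from 0.41 to 0.94, with the lowest value for Mmp3 with Mmp11 without Ext1S100a4Cre host tumours 1 and 4. The only other pair to pass was Mmp2 with Mmp19 (r = 0.86, exact p = 0.0118, adjusted 0.0483, rho = 0.667), and it rests on Ext1S100a4Cre host tumour 1 and WT host tumour 3, since r was 0.20 without them. These r pool both hosts, because 4 tumours of 1 host, or 4 arrays of 1 slide row, are too few for a correlation.

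Mmp8 and Mmp12 formed another pattern, low in Ext1S100a4Cre host tumour 3 and high in tumour 4 of both hosts. Their r was 0.79 (exact p = 0.0175, adjusted 0.0655, rho = 0.667), which missed the threshold, and it was 0.92 without Ext1S100a4Cre host tumour 3 and WT host tumour 1. Both had negative r with Mmp2, Mmp3, Mmp9, Mmp11 and Mmp14, between -0.39 and -0.14, and none of these passed.

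**Figure D3:**
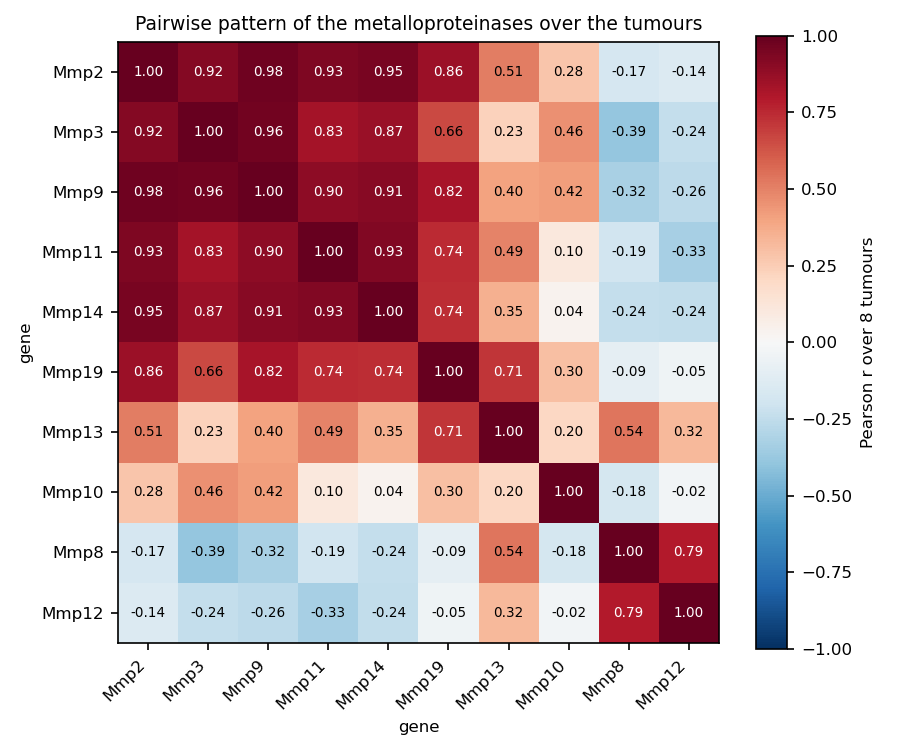
Pearson r between the levels of each pair of metalloproteinases over the 8 tumours (colour from -1 to 1, value printed in each cell, genes in the same order on both axes). The block of Mmp2, Mmp3, Mmp9, Mmp11 and Mmp14 at the upper left has r of 0.83 and above, and Mmp8 with Mmp12 at the lower right has 0.79.

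Mmp13, Mmp12, Mmp3, Mmp10 and Mmp8 lie together on chromosome 9, in that order in the RefSeq gene table, with Mmp1b between Mmp12 and Mmp3 and Mmp1a between Mmp3 and Mmp10. Mmp27, Mmp20 and Mmp7 follow. Among the 10 pairs of the 5 chromosome 9 genes, r ran from -0.39 (Mmp3 with Mmp8) to 0.79 (Mmp8 with Mmp12), and 0 passed at an adjusted exact p of 0.05. Mmp12 and Mmp3 had r = -0.24, and Mmp3 and Mmp10 had r = 0.46. Mmp2, Mmp9, Mmp11 and Mmp14 lie on chromosomes 8, 2, 10 and 14.

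Markers of fibroblasts, macrophages, endothelial cells and neutrophils differed between tumours as well. Which cells made the enzymes was not measured. Fibroblast markers had a lower mean in the Ext1S100a4Cre host for 14 of 15 genes, and their summed level, on a linear scale where 1 is the array's 75th percentile, was 24.0 to 226.3 in the Ext1S100a4Cre host and 139.5 to 565.0 in the WT host. None of the 15 was called, and all but Dpt were above background in every tumour. Col6a3, Col1a1 and Col3a1, which encode collagen chains, had the smallest unadjusted p, with differences of -1.34, -1.80 and -2.11 (limma adjusted p = 0.747 each). Macrophage markers had a lower mean for 15 of 15 genes, with a summed level of 6.88 to 63.2 in the Ext1S100a4Cre host and 37.1 to 232.5 in the WT host. Cx3cr1, Ms4a7 and Msr1 led that list by p, with differences of -2.75, -2.57 and -1.16 (limma adjusted p = 0.747 each). Endothelial markers had a lower mean for 9 of 10 genes, with a summed level of 13.3 to 29.6 in the Ext1S100a4Cre host and 22.9 to 27.7 in the WT host. Neutrophil markers had a lower mean for 6 of 10, with a summed level of 66.4 to 83.2 in the Ext1S100a4Cre host and 68.3 to 95.9 in the WT host. That sum is mostly Csf3r, at 5.96 to 6.30 in the Ext1S100a4Cre host and 6.05 to 6.32 in the WT host. The defining neutrophil gene Ngp was above background in 1 tumour of each host, and no probe was named Ly6g.

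The members that varied together also varied with the fibroblast markers. Against the mean of the 15 fibroblast markers, 6 of the 10 genes passed an exact permutation test over the 40320 pairings of tumours, adjusted over the 50 pairs of a gene and a marker list. The largest unadjusted exact p that passed was 0.0123, and 13.5% of all genes reached it against the same markers. For Mmp9, r was 0.97 (exact p = 7.4e-05, adjusted 0.00186) with rho = 0.976, and for Mmp14, r was 0.93 (exact p = 7.4e-05, adjusted 0.00186) with rho = 0.976. These were also the 2 that passed by Spearman's rho. Mmp2 had r = 0.99 (exact p = 0.000174, adjusted 0.00289, rho = 0.905) and Mmp3 r = 0.92 (exact p = 0.000694, adjusted 0.00868, rho = 0.833). Without the 2 tumours farthest from the median of the markers, Ext1S100a4Cre host tumour 1 and WT host tumour 3, r was 0.96 for Mmp9, 0.92 for Mmp14, 0.94 for Mmp2 and 0.87 for Mmp3.

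For Mmp11 and Mmp19 the relation with the fibroblast markers had lower r. Mmp11 had r = 0.87 (exact p = 0.0069, adjusted 0.0265, rho = 0.810) and r = 0.76 without those 2 tumours. Mmp19 had r = 0.86 (exact p = 0.0123, adjusted 0.041, rho = 0.762) and r = 0.081 without them, so it rests on those 2 tumours. Over the alternatives run, Mmp11 missed the threshold in 7 of 16 and Mmp19 in 11 of 16. Leaving out Ext1S100a4Cre host tumour 1 alone took Mmp9 to r = 0.89 (adjusted exact p = 0.0868), Mmp3 to 0.79 (0.228), Mmp11 to 0.74 (0.228) and Mmp19 to 0.57 (0.455). Without Ext1S100a4Cre host tumours 1 and 4, Mmp2 had r = 0.94 and Mmp14 r = 0.90 over 6 tumours, each with an adjusted exact p of 0.0972. The remaining 4 genes did not pass: Mmp13 had r = 0.46, Mmp10 0.31, Mmp12 -0.07 and Mmp8 -0.18.

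**Figure D4:**
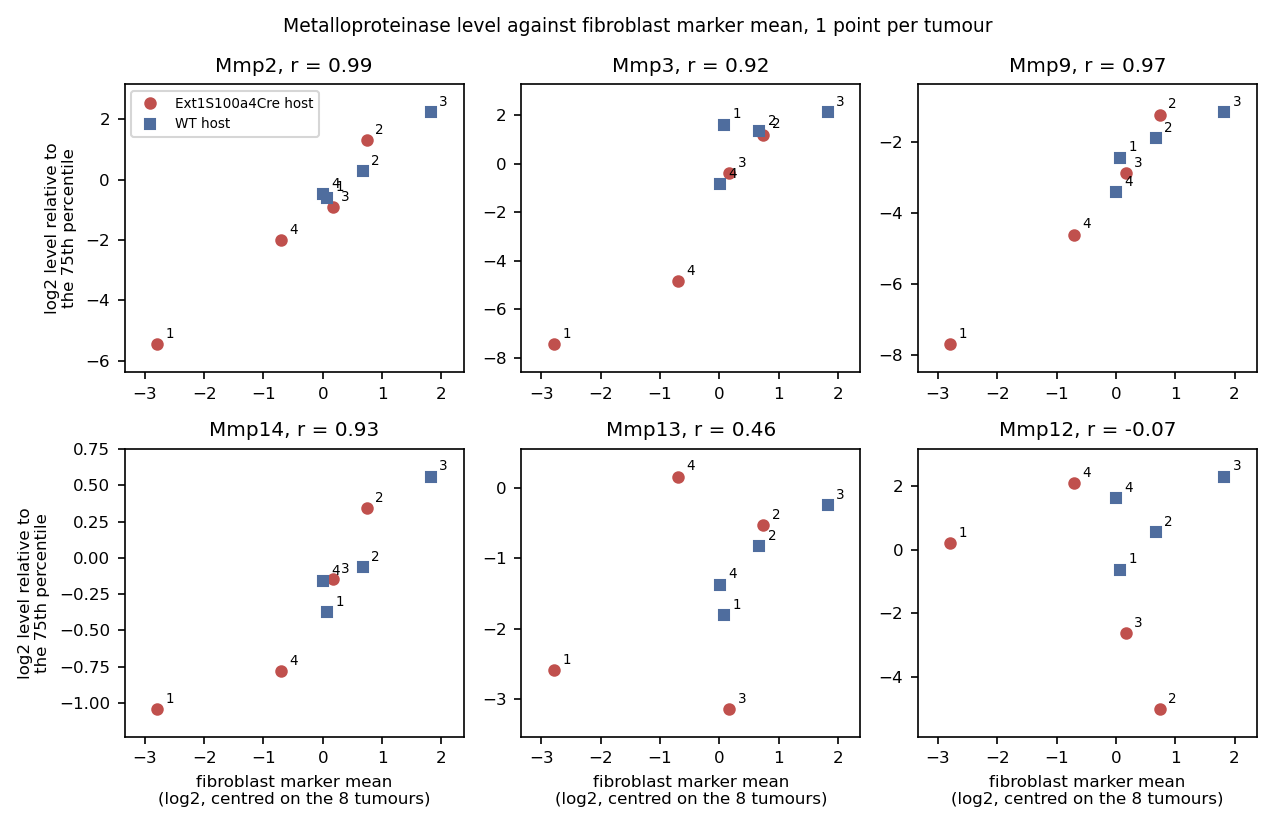
Level of 6 metalloproteinases (vertical axes, log2 relative to the array's 75th percentile) against the mean of 15 fibroblast markers (horizontal axes, log2 centred on the 8 tumours), 1 point per tumour, circles for the Ext1S100a4Cre host and squares for the WT host, numbered by tumour. Mmp2, Mmp9 and Mmp14 lie along a line with r of 0.99, 0.97 and 0.93, while Mmp13 and Mmp12 do not, with r of 0.46 and -0.07.

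Against endothelial markers 5 of the 10 genes passed and against macrophage markers 4, with 0 in each by Spearman's rho. An exact p of 0.0123 or less was reached by 10.7% of all genes with the endothelial and by 16.5% with the macrophage markers. For Mmp2, r was 0.93 with endothelial and 0.89 with macrophage markers, and 0.58 and 0.38 without Ext1S100a4Cre host tumour 1 and WT host tumour 3. Macrophage elastase Mmp12 had r = 0.14 with macrophage markers (exact p = 0.732, adjusted 0.872, rho = 0.286). Against neutrophil markers, 0 of the 10 passed, where 3.57% of all genes reached that p, with r = 0.46 for Mmp9 and 0.01 for Mmp8. Whether the number of fibroblasts, macrophages or endothelial cells has a part in the host differences above was not tested.

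By their mean, skeletal muscle markers split the tumours into 2 sets, Ext1S100a4Cre host tumours 2 and 3 and the other 6, so no r over all 8 is given. Their summed level was 1.11 to 23.9 in the Ext1S100a4Cre host and 0.740 to 1.63 in the WT host. Not every single marker followed that split. All 9 had a higher mean in the Ext1S100a4Cre host, and 0 were called. For 2 of them the groups did not overlap, against 4.54% of all genes in either direction. Actn3, with the smallest p, measured -3.62 and -3.57 in Ext1S100a4Cre host tumours 1 and 4, against -5.91 to -4.86 in the WT host. The 2 tumours with high muscle markers were the 2 with the lowest Mmp12, at -5.01 and -2.63, and held 2 of the 3 lowest Mmp8 values, at -3.58 and -4.33. Mmp2 in the same tumours was 1.30 and -0.92, inside the WT range of -0.60 to 2.23 or close below it. The part of muscle tissue in the low Mmp12 and Mmp8 values was not tested.

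**Figure D5:**
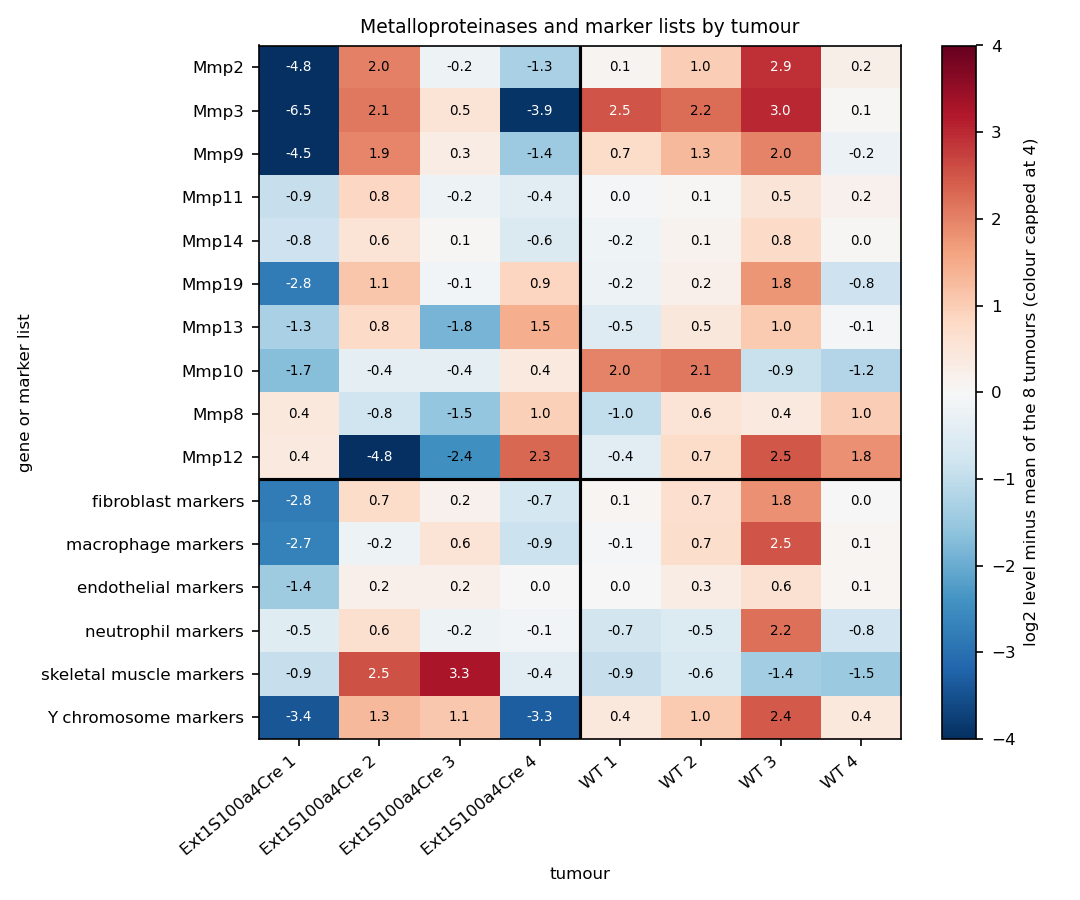
Level of each metalloproteinase (upper block) and mean of each marker list (lower block) in each tumour, in log2 units centred on the mean of the 8 tumours, with Ext1S100a4Cre host tumours left and WT host tumours right (colour capped at 4, values printed). Mmp2, Mmp3, Mmp9 and fibroblast markers are lowest in Ext1S100a4Cre host tumour 1, and Mmp12 is lowest in Ext1S100a4Cre host tumours 2 and 3, where muscle markers are highest.

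Among the other metalloproteinases of the mouse, 6 of 13 listed genes were bright enough to test, and 0 passed. Of these, 5 had a lower mean in the Ext1S100a4Cre host and 1 a higher one, with a median difference of -0.32. The exception was Mmp24, a membrane-bound enzyme of the nervous system, with a difference of 0.79 (SE 0.28, unadjusted p = 0.0221, limma adjusted p = 0.747). Its levels were -6.73, -5.73, -6.08 and -5.57 in Ext1S100a4Cre host tumours 1 to 4 and -6.60, -6.73, -6.63 and -7.31 in WT host tumours 1 to 4, and the probe was above background in 3 Ext1S100a4Cre host tumours and in 1 WT host tumour. Mmp23, Mmp15 and Mmp17 differed by -1.16, -0.39 and -0.25. Mmp1a, Mmp20 and Mmp21 were above background in 0 of 8 tumours and Mmp1b, Mmp16 and Mmp25 in 1 or 2, and no probe was named Mmp27.

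The inhibitors of the enzymes were measured in full, and 0 of 6 passed, with 5 lower means and a median difference of -0.53. Timp2, which inhibits metalloproteinases and also presents the Mmp2 proenzyme to Mmp14, measured 0.03, 3.83, 3.28 and 1.90 in Ext1S100a4Cre host tumours 1 to 4, against 2.80, 3.23, 5.60 and 3.07 in WT host tumours 1 to 4. As for Mmp2, tumour 1 of the Ext1S100a4Cre host was lowest and tumour 3 of the WT host highest, and the difference was -1.42 (SE 0.92, limma adjusted p = 0.747). Timp1 and Timp3 differed by -0.31 and -0.48, the membrane-anchored inhibitor Reck by -0.57, and A2m, a protease trap of plasma, by -0.85. Timp4 had a higher mean in the Ext1S100a4Cre host, by 1.16 (SE 0.70, limma adjusted p = 0.747). Its 2 high values, -2.96 and -2.45, were in Ext1S100a4Cre host tumours 2 and 3, where the muscle markers were high, against -5.46 to -4.81 in the other 6.

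Of the proteases that activate metalloproteinases, with their inhibitors, 7 of 9 had a lower mean and 0 passed, with a median difference of -0.17. Plau, which encodes urokinase and so makes plasmin, had the smallest p of the list. Its levels were between -2.81 (tumour 1) and -0.80 (tumour 2) in the Ext1S100a4Cre host, against -0.82 (tumour 4) to 1.12 (tumour 3) in the WT host. The groups overlapped by 1 tumour of each host, and the difference was -1.35 (SE 0.56, unadjusted p = 0.0409, limma adjusted p = 0.747). Plat, the tissue plasminogen activator, differed by -0.83, the urokinase receptor Plaur by -0.37 and plasminogen itself, Plg, by 0.22.

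Cytokines and AP-1 subunits known to induce metalloproteinases were lower in mean for 10 of 13 tested genes, with a median difference of -0.50, and 0 passed. For Il1b, which encodes an inflammatory cytokine, the groups did not overlap. This was so for 1 of the 13 genes, and for 1.14% of all genes with the Ext1S100a4Cre host below. Il1b measured -2.47, -2.95, -2.26 and -2.32 in Ext1S100a4Cre host tumours 1 to 4, against -2.12, -1.73, 1.56 and -1.39 in WT host tumours 1 to 4. WT host tumour 3 was far above the other 3 WT tumours, and the difference was -1.58 (SE 0.74, limma adjusted p = 0.747). Tnf, Osm and Fos differed by -0.69, -0.66 and -1.14, with adjusted p of 0.747, 0.747 and 0.753 in limma. Il1a was too dim to test.

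Substrates of the enzymes had a lower mean for 13 of 14 genes, with a median difference of -0.90, and 0 passed. The fibrillar collagen chain gene Col5a1 differed by -1.58 (SE 0.73, limma adjusted p = 0.747), and Col1a1, Col1a2, Col3a1 and Col5a1 stand in the fibroblast list as well, so the 2 lists are not independent. The share of lower means was above the 41.9% of all genes for each of the 5 lists of related genes and the 10 metalloproteinases. No gene of any list was called. The same share was also above 41.9% for fibroblast, macrophage, endothelial, neutrophil, skin keratinocyte and Y-linked markers. For carcinoma epithelium and skeletal muscle markers it was below. All lists were measured in the same tumours, so these shares are not independent.

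The genes most like each metalloproteinase over the 8 tumours were taken from 15694 named genes by Pearson r. They are given as a description with no test, since they were picked for a high r among many. Mmp14 went most closely with Fgf7, a growth factor of stromal cells, and with Ecrg4, both at r = 0.99. Mmp9 had r = 0.99 with Serpinf1, a secreted serpin, and with Bnc2, a zinc finger gene. Mmp2 had 0.99 with Kcnmb4, a potassium channel subunit, and with Sec16b. Mmp3 was closest to Nav3 (0.98) and Atp8b1 (0.97). For Mmp3 with Atp8b1, r was 0.64 without Ext1S100a4Cre host tumours 1 and 4, the lowest such value of the 20 pairs.

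Mmp11 was closest to Osbpl5 (0.99) and Apold1 (0.98), and Mmp19 to Lix1l and Soat2, an enzyme of cholesterol esterification (0.98 each). Mmp10 was closest to Mcpt8, a protease of basophils, at 0.97, and to Tspyl3 at 0.93. Mmp12 was closest to Alg14 (0.98), an enzyme of glycan assembly, and Derl1 (0.97), a part of protein quality control in the endoplasmic reticulum. Mmp13 was closest to Cerk (0.98), the ceramide kinase, and Mgat1 (0.91), an enzyme of glycan processing. Mmp8 was closest to Rusf1 (0.95) and to Mast3, a kinase (0.94). With 8 tumours, many genes reach such values.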

How the data were processed

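Total RNA of 8 whole tumours, 0.5 µg each, was labelled with Cy3 and hybridised to 8 arrays of 1 slide. The deposited files hold linear spot intensity, per the file headers from Agilent Feature Extraction 10.7.3.1, background-subtracted and detrended. The submitters' processing notes name version 9.1, and the headers name mouse build mm9. Other deposited columns used hold 0 or 1 flags, or median spot and background intensities, which entered only the normexp alternative named below. The deposited series matrix held the same processed intensity values without scaling. From these, log2 processed intensity minus the array's 75th percentile (846.9 to 1265) was computed, outlier spots (53 to 132 per array) and 3671 control spots left out, and spots of a probe averaged. No spot was saturated. The filter kept 39716 of 56605 probes, those flagged well above background on 4 or more of the 8 arrays. Accessions were named through a RefSeq table of GRCm38.p6, used for names, chromosomes and gene order only: 32994 probes had a symbol and 23611 none. A gene was represented by its brightest kept probe, which gave 17238 named genes and 14044 unnamed transcripts. Precision is limited by the number of arrays and, for dim probes, by background.

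The 2 hosts entered limma 3.58.1 (R 4.3.3, lmFit and eBayes, two-sided), and for single genes an exact permutation test, also two-sided, ran over 70 assignments with a smallest p of 0.0286. The code was tested on simulated data. Correlations used scipy 1.17.1. The labels number 4 tumours per host and say no more of the animals, so p-values measure the spread between these tumours. The members and lists were chosen with earlier results of these data known. All members are named, with the 2 named genes of highest r to each, up to 4 genes per pathway list and up to 3 per marker list by smallest unadjusted p, any inhibitor, and defining markers below background. Krt8, Csf3r and Dpt were named after their values were seen. The values of 1 further gene that the rule names are not reported here. Alternatives were normexp (offset 50, on median intensities), other scalings, filters and probe rules, blocks, array weights, robust variance, and leaving out tumours.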

Additional observations from a re-analysis of the deposited data

Results flagged for a closer look

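No metalloproteinase had a tumour that stood apart from the other 3 of its host by Dixon's criterion for 4 samples. Of 30 groups examined, 2 groups of marker means did, and chance gives about 1 in 20. The mean of the neutrophil markers in WT host tumour 3 was 2.21 on the centred log2 scale, against -0.76 to -0.54 in the other 3 WT host tumours, with a gap of 0.924 of the range. In that tumour 6 metalloproteinases were also highest, Mmp9 and Mmp12 among them, and Mmp8 was not. The fibroblast and macrophage marker means were highest there as well, at 1.83 and 2.51. The mean of the endothelial markers in Ext1S100a4Cre host tumour 1 was -1.43, against 0.02 to 0.22 in the other 3 Ext1S100a4Cre host tumours, with a gap of 0.882. The 7 metalloproteinases lowest in that tumour are given above.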

How the results depend on the processing

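In each of 23 alternatives 0 of the 10 metalloproteinases passed limma's threshold, including a threshold of 0.1. The smallest adjusted p of a member was 0.281, without Ext1S100a4Cre host tumours 2 and 3. The median difference lay between -1.20 and -0.30, and leaving out 1 tumour at a time it ran from -1.20 to -0.48, with 9 to 10 genes lower and 0 called. In the same runs Mmp13 ran from -1.02 to 0.077 and Mmp19 from -0.91 to 0.39. Without Ext1S100a4Cre host tumours 1 and 4, 6 genes were lower, and Mmp9 (0.17), Mmp11 (0.13), Mmp14 (0.11) and Mmp19 (0.28) were higher. Without Ext1S100a4Cre host tumours 2 and 3, Mmp8 (0.46) and Mmp12 (0.19) were higher, while Mmp3 was at -7.19 and Mmp2 at -4.10. Mmp19 was above 0 without Ext1S100a4Cre host replicate 1 and, at 0.05, without WT host replicate 3, and Mmp13 without Ext1S100a4Cre host replicate 3. Without Ext1S100a4Cre host tumour 1 and WT host tumour 3, an alternative chosen after seeing the data, 7 genes were lower, with Mmp13 at 0.17, Mmp14 at 0.0060 and Mmp19 at 0.90. In these settings fewer tumours enter the fit. Requiring all 8 arrays above background removed Mmp3 and Mmp9, and 8 of 8 were lower. Normexp took Mmp9 to -0.73 and Mmp3 to -2.55. Array weights took Mmp12 to -0.73, Mmp8 to -0.07, Mmp13 to -0.08, Mmp19 to -0.15 and Mmp10 to -1.87. The cause was not tested for either. Over all genes, limma called 1 with normexp, 1 with array weights, 2 without WT host replicate 3, 11 without Ext1S100a4Cre host tumours 1 and 4, 3 without Ext1S100a4Cre host tumour 1 and WT host tumour 3, and 0 otherwise.

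The 6 relations with fibroblast markers that passed kept their sign in each alternative run, but Mmp19 lost the threshold in 11 of 16 (adjusted exact p of 0.0513 to 0.455 there) and Mmp11 in 7 of 16 (0.0505 to 0.499). Mmp3 lost it in 3 of 15, Mmp9 in 2 of 15, and Mmp2 and Mmp14 in 1 of 16 each. The weak r of Mmp8, Mmp10 and Mmp12 with those markers changed sign in 1, 2 and 5 of 16 alternatives. The labels do not say whether replicate numbers pair the tumours. Deviations of same-numbered tumours correlated at 0.493, -0.161, 0.591 and -0.245, and 2 of 4 matched their own number best, which does not settle it. With the number as a replicate block, 0 members were called, the median difference was -0.75 and the smallest adjusted p of a member was 0.459.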
